A study of Homo sapiens with 9 samples.

Results

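The 10 genes described here belong to signalling by bone morphogenetic proteins (BMPs): the ligand genes BMP2, BMP4 and BMP7, the genes of the inhibitors of DNA binding ID1, ID2, ID3 and ID4, the inhibitory SMADs SMAD6 and SMAD7, and the decoy receptor BAMBI. They were taken by gene symbol, with no cutoff on their values, from a table of read counts for 25369 named genes. The list was chosen with earlier results of these data known, so shares of members beside shares of all genes are description only. All 10 were in the table, and 9 passed the filter on low counts; ID4 did not. BMP7 passed through 1 library alone and is described by its counts, so 8 genes carry fitted changes.

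The cells were MCF10A, a non-tumorigenic human mammary epithelial line. HER2 cells carried the retroviral construct pBABEpuro-HER2-CA with the V659E change in HER2, a receptor tyrosine kinase, and empty-vector cells carried pBABEpuro alone. RNA-seq libraries were made from HER2 cells with YAP/TAZ siRNA on plastic (2 libraries, siRNA 1 and siRNA 3), HER2 cells with control siRNA on a 0.5 kPa hydrogel (1) and HER2 cells with control siRNA on plastic (1), and from empty-vector cells with YAP/TAZ siRNA on plastic (2, the same siRNA numbers), with control siRNA on the 0.5 kPa hydrogel (1) and with control siRNA on plastic (2, called A and B). All 9 libraries came from cells that had been transfected, replated after 24 h and harvested 24 h later, in medium with horse serum, insulin, EGF, hydrocortisone and cholera toxin. No label names separate cultures or clones, so p-values measure the spread between these libraries, which may be technical. Of the 6 groups, 3 were 1 library each. The 2 libraries of each YAP/TAZ siRNA group differed in siRNA, so the spread within that group includes any difference between the siRNAs.

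BMPs bind paired serine/threonine kinase receptors, which phosphorylate SMAD1, SMAD5 and SMAD9; these enter the nucleus with SMAD4 and raise transcription of target genes, among them ID1, ID2 and ID3. ID proteins lack a DNA-binding domain and hold basic helix-loop-helix factors away from DNA. SMAD6, SMAD7 and BAMBI are themselves targets and damp the signal: SMAD6 acts mostly on the BMP branch, SMAD7 on both the BMP and the TGF-beta branch, and BAMBI resembles a type I receptor without a kinase domain. YAP and TAZ are transcriptional coactivators that are active on stiff supports and leave the nucleus on soft ones.

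Promoter windows of 250 bases before the annotated start were read from RefSeq (GRCh38.p14), where 8 of the 10 genes had 12 windows. Those of ID1 and ID3 are shown because ID3 separated the lines and its relative ID1 did not, and capitals mark TATAA within the last 50 bases, at positions -31 and -29 from the start.
ID1 (chr20:31605039-31605288, plus strand): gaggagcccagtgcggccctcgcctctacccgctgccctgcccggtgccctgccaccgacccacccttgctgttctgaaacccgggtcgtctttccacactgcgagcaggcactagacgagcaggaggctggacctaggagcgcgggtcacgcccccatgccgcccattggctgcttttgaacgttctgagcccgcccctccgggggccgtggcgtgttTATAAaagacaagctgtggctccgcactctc
ID3 (chr1:23559502-23559751, minus strand): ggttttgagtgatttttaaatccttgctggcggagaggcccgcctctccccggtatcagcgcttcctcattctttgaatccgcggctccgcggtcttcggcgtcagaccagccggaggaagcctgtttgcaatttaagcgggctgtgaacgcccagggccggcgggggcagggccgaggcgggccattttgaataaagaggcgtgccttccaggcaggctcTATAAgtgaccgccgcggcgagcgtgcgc
SMAD6 is shown because it stood opposite to ID3 between the lines, and BAMBI because it was lower in HER2 cells over the mean of the settings; capitals mark GTCTAGAC, the palindromic SMAD-binding motif, in SMAD6 at position -12, and GGCGCC, a GC-rich motif bound by BMP SMADs, in BAMBI at positions -209, -196 and -181.
SMAD6 (chr15:66701986-66702235, plus strand): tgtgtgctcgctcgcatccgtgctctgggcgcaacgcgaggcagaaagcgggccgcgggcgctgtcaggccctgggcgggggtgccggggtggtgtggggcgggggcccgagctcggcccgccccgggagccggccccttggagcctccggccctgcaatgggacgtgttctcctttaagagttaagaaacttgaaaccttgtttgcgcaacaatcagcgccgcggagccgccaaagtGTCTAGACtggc
BAMBI (chr10:28677271-28677520, plus strand): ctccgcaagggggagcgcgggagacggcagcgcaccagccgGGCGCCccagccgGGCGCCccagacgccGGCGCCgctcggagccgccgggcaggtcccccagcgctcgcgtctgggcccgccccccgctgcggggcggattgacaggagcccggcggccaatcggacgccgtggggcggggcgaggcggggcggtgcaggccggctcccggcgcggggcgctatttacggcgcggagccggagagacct
Among 35116 RefSeq windows of the same length, GTCTAGAC was found on either strand in 0.182% and GGCGCC in 16.4%. TATAA on the gene strand within the last 50 bases was found in 4.74%. ID2, the third ID gene with a fitted change, held none of these 3 motifs. Among windows not shown, GGCGCC was also found in a window of BMP4 (-232). TATAA was also found in that of ID4 (-29) and in a window of SMAD7 (-35). GGAATG, the motif of the TEAD factors through which YAP and TAZ act, was found on either strand in 11.9% of all windows and, among the 12 windows of the members, in that of ID4, at position -248. A match is a run of letters, not a measured binding site.

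Libraries held 24425556 counts (HER2 control on plastic, the shallowest) to 78945981, and levels below are CPM (counts scaled to library size) after TMM scaling. ERBB2, which encodes HER2, stood at 361 to 614 CPM in HER2 libraries and 57.7 to 95.5 CPM in empty-vector libraries. YAP1 was at 9.75 and 18.9 CPM with siRNA 1 and 3 in HER2 cells, against 115 CPM in their control, and at 14.3 CPM with either siRNA in empty-vector cells, against 83.9 and 85.1 CPM in their controls. WWTR1, the gene of TAZ, was at 29.0 and 48.2 CPM against 170 CPM in HER2 cells, and at 14.0 and 21.6 CPM against 77.4 and 76.9 CPM in empty-vector cells. The 8 epithelial markers listed for the line summed to 467 to 1073 CPM in HER2 and 4650 to 11150 CPM in empty-vector libraries. All 8 reached 1 CPM in empty-vector cells. In HER2 libraries KRT14, KRT17, TP63 and CDH1 were all under 5 CPM. The others were KRT5 (213 to 646 CPM), LAMB3 (65.3 to 334 CPM), ITGB4 (49.1 to 128 CPM) and EPCAM (19.6 to 24.7 CPM). LAMB3 and ITGB4 overlapped the empty-vector libraries, whose lowest values were 312 and 127 CPM. In bulk RNA, fewer cells of a type and less RNA per cell cannot be told apart. The part of this marker difference in the results between the lines was not tested. Of 6 leukocyte markers, 5 were at 0 in every HER2 library and 3 in every empty-vector library. The leukocyte markers summed to 6.61 to 19.98 CPM in HER2 and 6.44 to 27.2 CPM in empty-vector libraries. Most of this was CD14, at 6.61 to 19.98 CPM in HER2 and 6.44 to 26.1 CPM in empty-vector libraries. Endothelial markers summed to 13.8 to 39.1 and 3.97 to 23.7 CPM in the same order, mostly PECAM1 in HER2 cells. Fibroblast markers summed to 5.95 to 30.7 and 6.02 to 107 CPM, with DCN at up to 27.9 and 90.4 CPM. Markers of hormone-receptor luminal cells summed to 11.4 to 19.9 and 10.9 to 38.8 CPM.

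ID1 was the most abundant member in every group, in CPM and per kilobase of exon. Its level stood at 110 CPM in hydrogel-grown HER2 cells, 62.6 and 62.5 CPM with siRNA 1 and siRNA 3, and 44.2 CPM in the HER2 control on plastic. In empty-vector cells it was 135 CPM on the hydrogel, 175 and 75.0 CPM with siRNA 1 and siRNA 3, and 63.3 and 60.7 CPM in controls A and B. Every hydrogel and siRNA library thus stood above the plastic controls of its own line, while the 2 lines overlapped.

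ID3 separated the lines. It was at 7.37 CPM in hydrogel-grown HER2 cells, 2.69 and 2.54 CPM with siRNA 1 and siRNA 3, and 0.569 CPM in the HER2 control, which rested on 13 counts (95% Poisson interval 0.303 to 0.973 CPM, counting error only). In empty-vector cells it was at 43.6 CPM on the hydrogel, 47.2 and 36.0 CPM with the siRNAs, and 30.9 and 29.3 CPM in the controls. The highest HER2 library was below the lowest empty-vector library, and inside each line the plastic controls were the lowest.

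ID2 was low in both sets of controls. It was at 5.11 CPM in hydrogel-grown HER2 cells, 3.01 and 2.69 CPM with siRNA 1 and siRNA 3, and 0.656 CPM in the HER2 control, from 15 counts. In empty-vector cells it was at 49.0 CPM on the hydrogel, 26.6 CPM with siRNA 1, 2.87 CPM with siRNA 3, and 2.63 and 2.30 CPM in the controls. The high libraries were the empty-vector hydrogel and the empty-vector siRNA 1 library, and siRNA 3 in the same cells stood just above the controls. ID4 had 0 to 4 counts in each of the 9 libraries and stayed near or under the 3 counts that a count of 0 allows.

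SMAD6 ran the other way between the lines. It was at 8.22 CPM in hydrogel-grown HER2 cells, 6.60 and 2.83 CPM with siRNA 1 and siRNA 3, and 2.80 CPM in the HER2 control; in empty-vector cells it was at 1.58 CPM on the hydrogel, 1.60 and 1.24 CPM with the siRNAs, and 0.452 and 0.212 CPM in the controls. Every HER2 library was above every empty-vector library. SMAD7 was at 14.4 CPM in hydrogel-grown HER2 cells, 17.8 and 27.1 CPM with siRNA 1 and siRNA 3, and 14.1 CPM in the control, while in empty-vector cells it was at 7.82 CPM on the hydrogel, 15.2 and 27.5 CPM with the siRNAs, and 12.9 and 12.8 CPM in the controls. The siRNA 3 libraries were the highest in both lines, and the empty-vector hydrogel library was the lowest of all 9. BAMBI was at 11.3 CPM in hydrogel-grown HER2 cells, 8.61 and 12.8 CPM with siRNA 1 and siRNA 3, and 8.18 CPM in the control; in empty-vector cells it was at 25.8 CPM on the hydrogel, 30.3 and 19.4 CPM with the siRNAs, and 9.60 and 10.8 CPM in the controls. The HER2 and empty-vector controls lay close together, and the lines parted in the hydrogel and siRNA libraries.

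Of the ligands, BMP2 covered the widest range. It was at 0.640 CPM in hydrogel-grown HER2 cells, 1.68 CPM with siRNA 1, 29.4 CPM with siRNA 3 and 0.656 CPM (15 counts) in the HER2 control. In empty-vector cells it was at 8.89 CPM on the hydrogel, 15.8 CPM with siRNA 1, 51.9 CPM with siRNA 3, and 5.61 and 5.23 CPM in the controls. The siRNA 3 libraries were the highest in both lines. BMP4 stayed between 0.329 and 0.926 CPM in all 9 libraries. BMP7 had 40 counts in the empty-vector hydrogel library, 6 with siRNA 1 in empty-vector cells and 0 in the other 7 libraries; against a floor of 3 counts per library, the hydrogel level was at least 19.4-fold higher than that of the empty-vector controls.

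**Figure D1:**
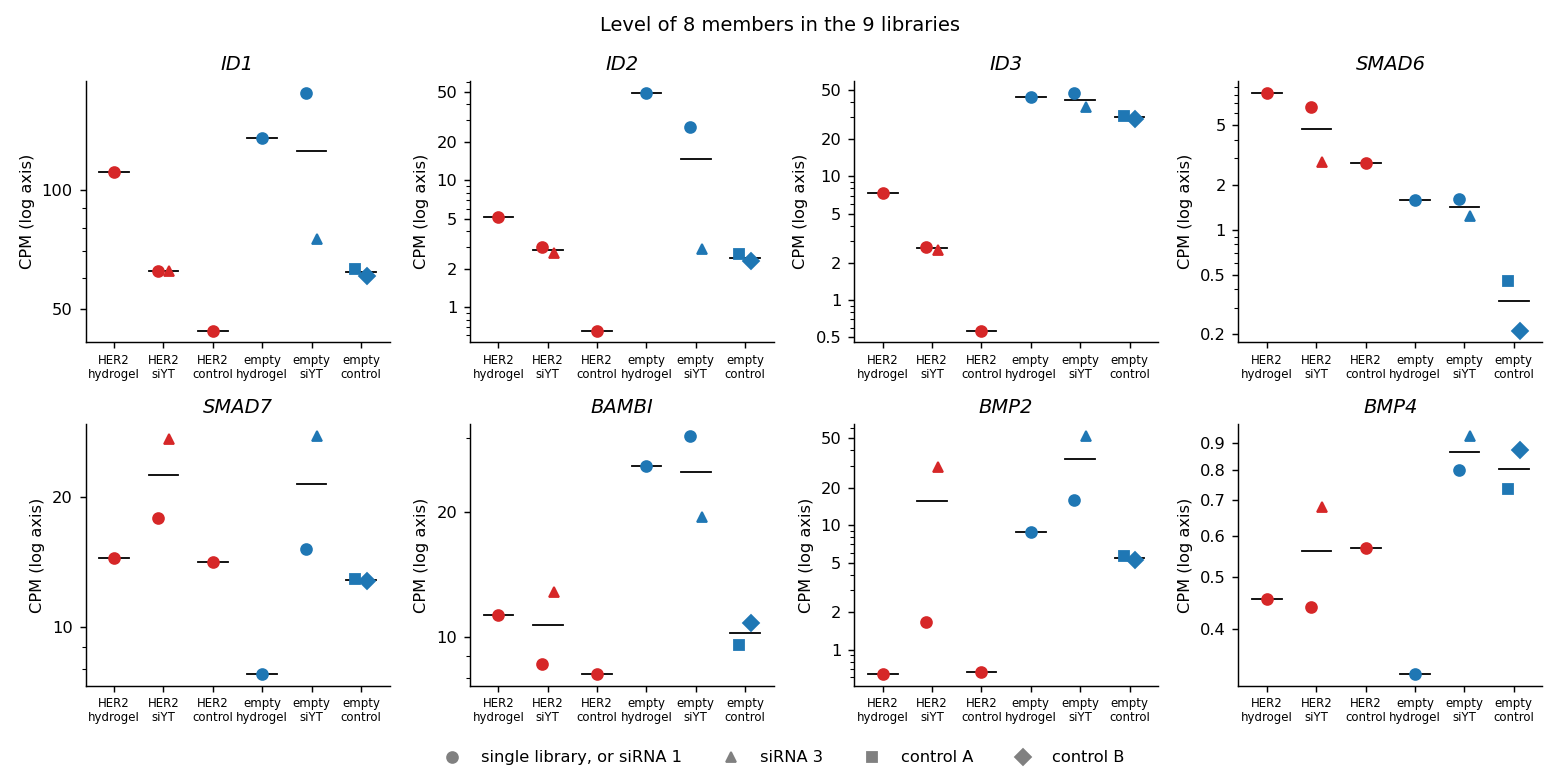
Level of 8 members (CPM, log axes) in each library, HER2 groups in red and empty-vector groups in blue; the line is the group mean, triangles are siRNA 3, and the vertical scale differs between panels. ID3 is below 8 CPM in all HER2 libraries and above 29 CPM in all empty-vector libraries, SMAD6 lies the other way round, and BMP2 peaks with siRNA 3 in both lines.

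Per kilobase of merged exons, with GENCODE v29 gene models, the order of levels in the HER2 control was ID1 (35.9 CPM per kb), BAMBI (4.36), SMAD7 (3.12), SMAD6 (0.730), ID3 (0.455), ID2 (0.306), BMP4 (0.270) and BMP2 (0.182). In the empty-vector controls it was ID1 (50.3 CPM per kb), ID3 (24.1), BAMBI (5.45), SMAD7 (2.84), BMP2 (1.51), ID2 (1.15), BMP4 (0.382) and SMAD6 (0.0865). The last 4 places in the HER2 control rested on 13 to 15 counts each, so their order was not resolved at this depth. ID3 stood directly after ID1 in the empty-vector order and after SMAD6 in the HER2 order.

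The first comparison was between HER2 and empty-vector cells, in each of the 3 settings and as the mean over them. ID3 was lower in HER2 cells in every setting and SMAD6 was higher over the mean of the settings. Both are BMP targets, and SMAD6 is also an inhibitor. BAMBI, likewise a target and an inhibitor, was lower in HER2 cells over the mean, and the target ID1 did not pass. ID3 was 52.9-fold lower in HER2 cells with control siRNA on plastic, 15.9-fold lower under YAP/TAZ siRNA and 5.92-fold lower on the hydrogel, as ratios of mean CPM. SMAD6 was 8.44-fold, 3.32-fold and 5.20-fold higher in the same 3 settings.

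Tests used edgeR's quasi-likelihood model with p-values adjusted over the 16117 genes tested (Benjamini-Hochberg, threshold 0.05). The group-means model holds the 6 groups. The reagent model adds 1 common term for the siRNA number (3 against 1), which is the replicate block of this design. Without that term, the difference between the siRNAs enters the spread behind every group-means SE and p-value, also for HER2 and the hydrogel. In the group-means model ID3 passed on plastic (log2 fold change -5.72 ± 0.40 SE, adjusted p = 0.0118), on the hydrogel (-2.56 ± 0.34, 0.0359), under YAP/TAZ siRNA (-3.99 ± 0.26, 0.00544) and over the mean of the settings (-4.09 ± 0.20, 0.000855). It was the 1 member of 9 called in each single setting, where 1.03% of all genes were called on plastic, 1.51% on the hydrogel and 5.84% with YAP/TAZ knocked down. Over the mean, 3 of 9 members were called and 25.8% of all genes: ID3, SMAD6 (2.39 ± 0.43, adjusted p = 0.0155) and BAMBI (-0.91 ± 0.24, 0.0410). That share of members is near the background.

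The reagent model called 2 of 9 members on plastic (background 22.3%), 4 on the hydrogel (25.7%), 3 under YAP/TAZ siRNA (32.8%) and 6 over the mean (49.5%). SMAD6 passed in all 3 settings there (3.08 ± 0.55 on plastic, adjusted p = 0.0212; 2.38 ± 0.62 on the hydrogel, 0.0482; 1.62 ± 0.44 under siRNA, 0.0439). Over the mean of the settings, ID2 (-2.27 ± 0.57, adjusted p = 0.0243) and BMP2 (-2.93 ± 0.48, 0.00697) were lower in HER2 cells and SMAD7 was slightly higher (0.37 ± 0.11, 0.0353). On the hydrogel BMP2 was lower (-3.79 ± 0.91, 0.0394) and SMAD7 higher (0.88 ± 0.21, 0.0400), and under siRNA BAMBI was lower (-1.21 ± 0.32, 0.0419). ID1 had -0.55 ± 0.21 over the mean (adjusted p = 0.0811) and BMP4 had -0.23 ± 0.34 (0.634), and neither passed.

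In the group-means model the ID3 call ended without control A or without control B, on plastic (adjusted p = 0.143 and 0.141) and on the hydrogel (0.159 for each), and the BAMBI call over the mean ended without A, B or the empty-vector siRNA 1 library (0.127, 0.140 and 0.0591); the reagent model kept both without A or B, but lost SMAD6 in each single setting (0.0515 to 0.0953), SMAD7 on the hydrogel and over the mean (0.199 to 0.201) and BAMBI under siRNA (0.0652 to 0.0660). Between lines, the 4 HER2 and 5 empty-vector libraries did not overlap for ID3 (lower, as for 12.5% of all genes) and SMAD6 (higher, as for 5.98%).

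**Figure D2:**
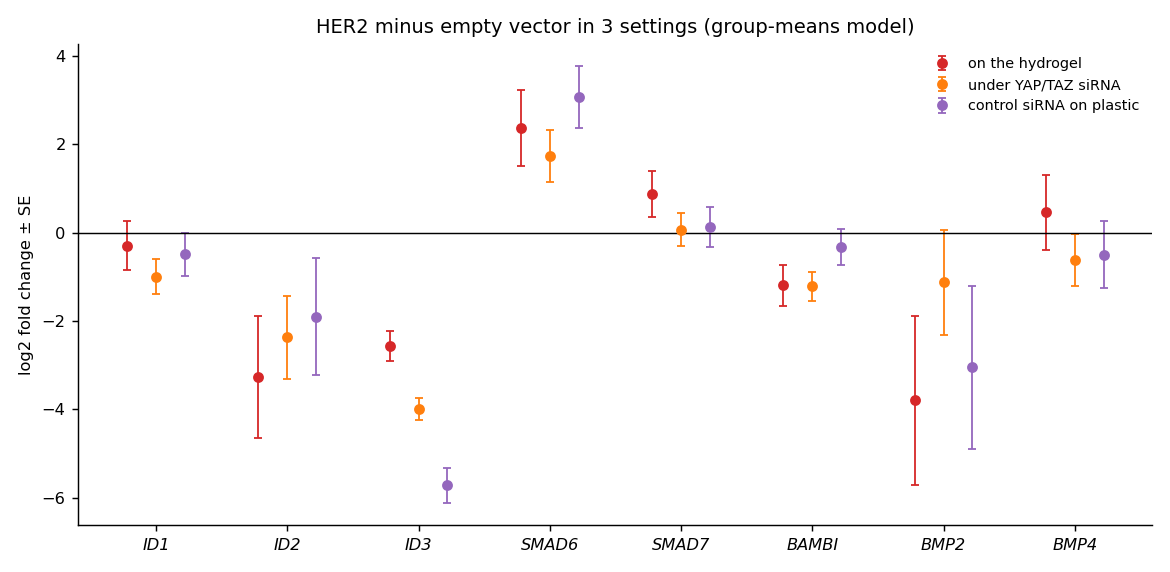
Fitted log2 fold change of HER2 over empty-vector cells for 8 members on the hydrogel (red), under YAP/TAZ siRNA (orange) and with control siRNA on plastic (purple), with bars of 1 SE from the group-means model. ID3 is below 0 in all 3 settings, from -2.56 on the hydrogel to -5.72 on plastic, and SMAD6 is above 0 in all 3.

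The second comparison, hydrogel against plastic with control siRNA, addressed the soft support. The group-means model, the main model for it, called none of the 9 members. ID1, ID2, ID3 and SMAD6 rose on the hydrogel over the mean of both lines in the reagent model, by 2.17-fold to 19.9-fold in empty-vector cells for ID1, SMAD6 and ID2 as ratios of CPM, and by 2.5-fold to 13.0-fold in HER2 cells for all 4. ID2 stood out in empty-vector cells, at 19.9-fold, and ID3 in HER2 cells, at 13.0-fold, against 1.45-fold for ID3 in empty-vector cells. BMP2, at 0.975-fold in HER2 cells and 1.64-fold in empty-vector cells, and SMAD7, at 1.02-fold and 0.608-fold, did not pass.

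In that model the log2 changes over both lines were 1.22 ± 0.27 for ID1 (adjusted p = 0.0475), 3.63 ± 0.74 for ID2 (0.0402), 2.11 ± 0.17 for ID3 (0.00994) and 1.90 ± 0.41 for SMAD6 (0.0456). These 4 of 9 members compare with 6.87% of all genes called higher and 13.9% in either direction. In empty-vector cells 2 of 9 members rose (10.2% of all genes higher, 20.2% in either direction): ID2 by 4.31 ± 0.82 (0.0292) and SMAD6 by 2.25 ± 0.54 (0.0452). In HER2 cells ID3 rose by 3.69 ± 0.28 (0.0443), where 0.0372% of all genes were called higher and 0.186% in either direction. That comparison is 1 library against 1, so its SE and p rest wholly on the spread within other groups. BAMBI had 0.90 ± 0.29 over both lines (adjusted p = 0.104), SMAD7 -0.34 ± 0.14 (0.164) and BMP4 -0.80 ± 0.46 (0.290).

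The group-means model called none of the 9 members and 0% of all genes in any of these 3 hydrogel comparisons; at an unadjusted p under 0.05 it had 3 members in empty-vector cells, 1 in HER2 cells and 5 over both lines, where 19.0%, 9.73% and 16.1% of all genes passed in the same order, so the 1 member in HER2 cells is near the background. DESeq2 called 3, 1 and 4 members and 11.6%, 1.94% and 8.01% of all genes. Each line had a single hydrogel library, and the reagent model's calls other than ID3 over both lines ended without control A or B (adjusted p from 0.0580 to 0.232). The hydrogel library was above every plastic control of its line in both lines for ID1, ID2, ID3, SMAD6 and BAMBI, as for 23.6% of all genes, and below for BMP4, as for 24.0%. Beside these values, the YAP/TAZ target CTGF was at 6.72 CPM on the hydrogel against 21.9 CPM on plastic in HER2 cells and at 7.76 CPM against 44.4 and 43.9 CPM in empty-vector cells. The proliferation marker MKI67 was at 284 CPM against 903 CPM in HER2 cells and at 41.3 CPM against 248 and 259 CPM in empty-vector cells; its part in the result was not tested.

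The third comparison, YAP/TAZ siRNA against control siRNA on plastic, also gave higher levels of most members. Here too, the group-means model was the main model and called none of the 9 members. In the reagent model ID3, SMAD6, SMAD7 and BMP2 rose over the mean of both lines. All 4 siRNA libraries were above every control library of their line for ID1, ID2, ID3, SMAD6, SMAD7, BMP2 and BAMBI. This is 7 of the 9 tested members and is seen for 18.0% of all genes. None of the 9 was below in this way, as 17.1% of all genes were. Some of these gaps lay inside the control's Poisson interval. In HER2 cells this held for SMAD6 with siRNA 3 (2.83 against 2.80 CPM, interval 2.16 to 3.58). It also held there for BAMBI with siRNA 1 (8.61 against 8.18 CPM, 7.05 to 9.44). In empty-vector cells it held for ID2 with siRNA 3 (2.87 against 2.63 CPM in control A, 2.26 to 3.03). For ID1, ID3, SMAD7 and BMP2 every siRNA library lay above the control intervals. BMP2 had the largest ratio of mean CPM, 23.7-fold in HER2 cells and 6.25-fold in empty-vector cells, while ID3 was 4.60-fold and 1.38-fold higher.

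In the reagent model the log2 changes over both lines were 1.33 ± 0.15 for ID3 (adjusted p = 0.00725), 1.37 ± 0.37 for SMAD6 (0.0458), 0.65 ± 0.12 for SMAD7 (0.0183) and 3.04 ± 0.56 for BMP2 (0.0180), which is 4 of 9 members beside 14.5% of all genes higher and 29.5% in either direction. In empty-vector cells 4 of 9 members rose (12.1% higher, 25.7% in either direction): SMAD6 by 2.10 ± 0.47 (0.0331), SMAD7 by 0.67 ± 0.15 (0.0320), BMP2 by 2.5 ± 0.58 (0.0352) and BAMBI by 1.28 ± 0.31 (0.0412). In HER2 cells ID3 rose by 2.20 ± 0.27 (0.0377), with 2.20% of all genes higher and 4.24% in either direction. ID1 had 0.72 ± 0.24 over both lines (0.0755), ID2 2.14 ± 0.67 (0.0695) and BMP4 0.02 ± 0.38 (1).

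The group-means model called none of the 9 members and 0% of all genes in the 3 siRNA comparisons; at an unadjusted p under 0.05 it had 4 members in empty-vector cells, 1 in HER2 cells and 5 over both lines, where 21.5%, 10.9% and 25.1% of all genes passed in the same order. DESeq2 called 3, 2 and 5 members and 14.4%, 3.33% and 18.5% of all genes. Without control A or B the reagent model kept ID3 and BMP2 over both lines and lost its other calls (adjusted p from 0.0642 to 0.319). CTGF was at 4.46 and 9.64 CPM against 21.9 CPM in HER2 cells, and at 3.67 and 9.28 CPM against 44.4 and 43.9 CPM in empty-vector cells. MKI67 was at 318 and 96.2 CPM against 903 CPM, and at 34.2 and 13.7 CPM against 248 and 259 CPM; its part in the result was not tested. The hydrogel and siRNA comparisons share their plastic controls, so their values stand side by side and are not 2 independent readings.

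**Figure D3:**
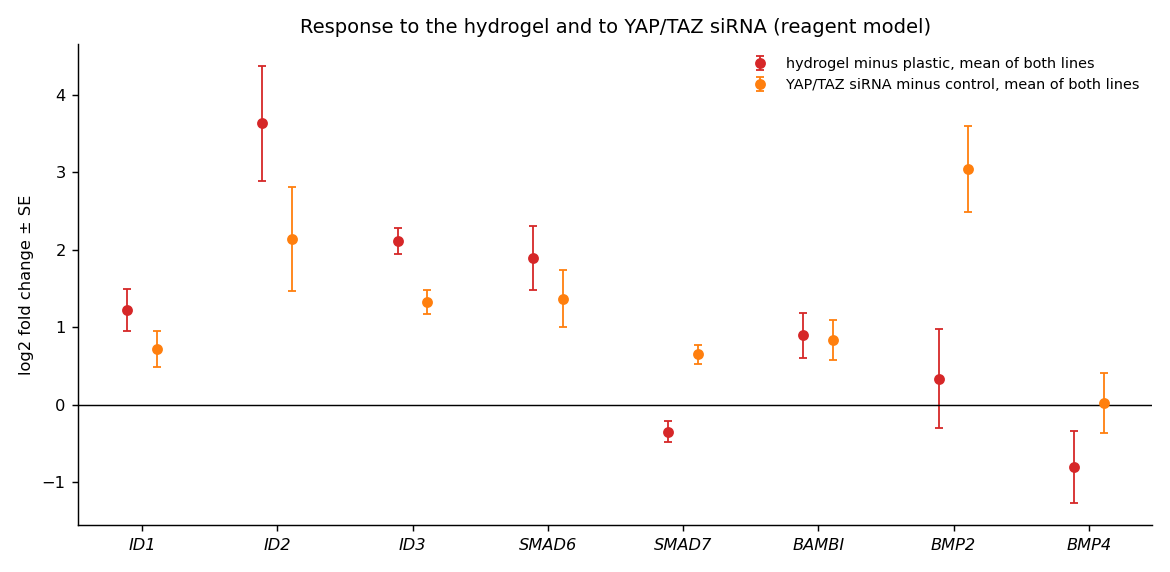
Fitted log2 fold change over both lines for 8 members, hydrogel over plastic (red) and YAP/TAZ siRNA over control siRNA (orange), with bars of 1 SE from the reagent model. ID2 has the largest hydrogel value (3.63) and BMP2 the largest siRNA value (3.04), while SMAD7 is at -0.34 on the hydrogel and 0.65 under siRNA; both comparisons use the same control libraries.

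BMP2 and SMAD7 were the members that passed for the siRNA number. Both were higher with siRNA 3 than with siRNA 1 in both lines: BMP2 was 44.8-fold over the control with siRNA 3 and 2.56-fold with siRNA 1 in HER2 cells, and 9.58-fold and 2.92-fold in empty-vector cells. SMAD7 was 1.92-fold over the control with siRNA 3 and 1.26-fold with siRNA 1 in HER2 cells, and 2.14-fold and 1.18-fold in empty-vector cells. The reagent-model difference of siRNA 3 from siRNA 1 was 2.87 ± 0.61 for BMP2 (adjusted p = 0.0386) and 0.73 ± 0.15 for SMAD7 (0.0347), 2 of 9 members beside 7.36% of all genes higher and 16.7% in either direction. SMAD7 did not pass without control A or B (0.191 each).

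The ID genes ran differently, with the lines apart. ID2 was 10.8-fold over the controls with siRNA 1 and 1.16-fold with siRNA 3 in empty-vector cells, but 4.59-fold and 4.10-fold in HER2 cells. ID1 was 2.82-fold and 1.21-fold in empty-vector cells, and 1.42-fold and 1.41-fold in HER2 cells. Over both lines neither ID2 (-1.74 ± 0.78, adjusted p = 0.181) nor ID1 (-0.61 ± 0.30, 0.207) passed in edgeR for siRNA 3 against siRNA 1. DESeq2 called ID2 (-1.68 ± 0.65, adjusted p = 0.0371) and 24.5% of all genes for the same difference. Whether this difference varied between the lines was not tested. SMAD6 was 2.36-fold over the control with siRNA 1 and 1.01-fold with siRNA 3 in HER2 cells, and 4.83-fold and 3.72-fold in empty-vector cells. BAMBI went opposite ways, with a ratio of siRNA 3 to siRNA 1 of 1.49 in HER2 cells and 0.639 in empty-vector cells. The common term of the reagent model for BAMBI, -0.04 ± 0.31, averages these, so its BAMBI fits leave this difference between the lines unmodelled. WWTR1 in both lines and YAP1 in HER2 cells were lower with siRNA 1 than with siRNA 3, and MKI67 was lower with siRNA 3 in both; their part in these differences was not tested.

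**Figure D4:**
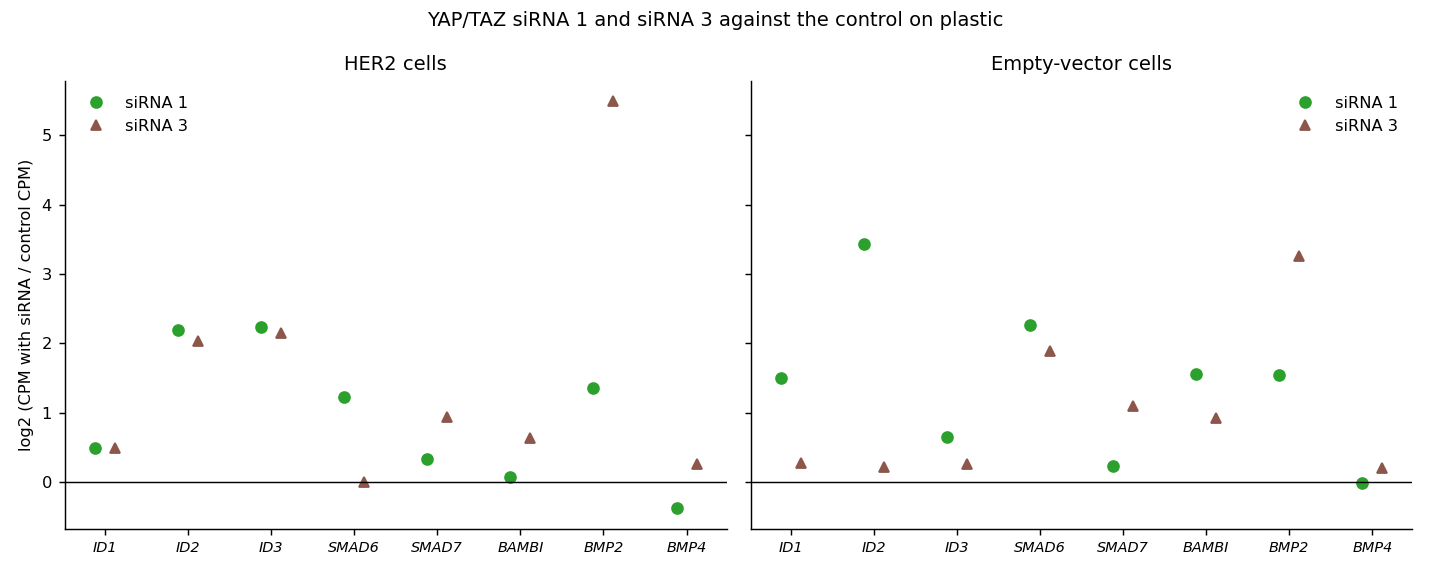
Log2 ratio of the CPM with YAP/TAZ siRNA 1 (circles) and siRNA 3 (triangles) to the control CPM on plastic for 8 members, in HER2 cells (left) and empty-vector cells (right); each point is 1 library. BMP2 is highest with siRNA 3 in both panels, and in empty-vector cells ID2 is 10.8-fold up with siRNA 1 and 1.16-fold with siRNA 3.

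Whether HER2 cells and empty-vector cells responded differently was tested as an interaction. The hydrogel response of ID3 was larger in HER2 cells by 3.16 ± 0.47 on the log2 scale in the group-means model (adjusted p = 0.379; 0.0709 with ± 0.34 in the reagent model), and its siRNA response by 1.73 ± 0.41 (1; 0.232 in the reagent model). DESeq2 called the ID3 hydrogel interaction (3.10 ± 0.65, adjusted p = 0.000536) and no siRNA interaction among the members. Of all genes, DESeq2 called 3.10% for the hydrogel interaction and 0.211% for the siRNA interaction. Both edgeR models called 0% of all genes and none of the 9 members for either interaction. At an unadjusted p under 0.05 the group-means model had ID3 for each (11.8% of all genes for the hydrogel and 4.57% for siRNA), and the reagent model had ID3 and SMAD7 for the hydrogel and ID3 for siRNA (28.0% and 15% of all genes), so 1 or 2 of 9 members is at or below the background in 3 of these 4 fits; in the fourth, siRNA in the group-means model, it is ID3 alone. The HER2 control entering these differences held 13 ID3 counts.

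A list of 59 further BMP pathway genes, of which 42 passed the filter, gave the setting around the members. For HER2 against empty-vector cells over the mean of the settings, the group-means model called 2 higher and 5 lower, and the reagent model 11 higher and 6 lower. The shares, 16.7% and 40.5% of the 42, lie below those of all genes, 25.8% and 49.5%, and leaving out 1 library moved the counts to 4 to 13 and 8 to 29, lowest without control A in both models (equally low without B in the group-means model); the list's median log2 change was 0.18 in the reagent model, against -0.10 over all genes. The extracellular antagonists FST (follistatin, which binds activins and some BMPs) and FSTL3 were lower in HER2 cells. FST averaged 2.28 CPM on the hydrogel, 1.84 CPM under siRNA and 0.656 CPM in the control in HER2 cells, against 31.1, 33.6 and 115 CPM in empty-vector cells (-5.14 ± 0.49, adjusted p = 0.00384 in the group-means model), and FSTL3 changed by -2.99 ± 0.33 (0.00510). RGMA, a BMP coreceptor (-3.98 ± 0.65, 0.0126), and SMURF1, a ubiquitin ligase that targets BMP SMADs and receptors (-1.07 ± 0.17, 0.0111), were also lower. RGMA was at 0.0875 CPM in the HER2 control, under its floor of 3 counts (0.131 CPM). On the hydrogel it was at 0.0996 CPM in HER2 cells, so the size of its change is loosely set. HEY1, a target of both BMP and Notch signals (1.97 ± 0.27, 0.00839), and TWSG1, a secreted BMP-binding protein (0.58 ± 0.13, 0.0293), were higher. In the reagent model SMURF2, a relative of SMURF1, was higher by 0.75 ± 0.07 (0.00171), so the 2 ligases changed in opposite directions, and the receptor-activated SMAD5 was higher by 0.60 ± 0.09 (0.00489).

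On the hydrogel, over both lines, the reagent model called 2 list genes higher and 8 lower, 23.8% of the 42 beside 13.9% of all genes (median -0.06, against -0.01 over all genes). The count was 1 without control A and reached 25 without an empty-vector siRNA library. SMURF2 (-1.52 ± 0.10, adjusted p = 0.00739), the BMP-binding membrane protein CRIM1 (-1.21 ± 0.14, 0.0176), FSTL1 (-0.83 ± 0.11, 0.0199) and the coreceptor ENG (-1.10 ± 0.15, 0.0209) fell. ATOH8, a basic helix-loop-helix factor and BMP target, rose by 3.25 ± 0.45 (0.0210), and the receptor ACVRL1 rose by 1.91 ± 0.43 (0.0486). ACVRL1 went from 0.306 to 0.455 CPM in HER2 cells and from 0.0952 to 0.924 CPM in empty-vector cells. ATOH8 was at 0.481 CPM in the HER2 control and 0.216 CPM in the empty-vector controls. At such low levels the sizes of their changes, here and below, are loosely set. Under YAP/TAZ siRNA, 4 rose and 5 fell, 21.4% of the 42, below the 29.5% of all genes (median 0.12, against 0.04 over all genes), and the count moved to 2 without control B and to 26 without the empty-vector siRNA 1 library. CRIM1 (-1.99 ± 0.11, 0.00365), SMURF2 (-0.91 ± 0.08, 0.00517), RGMB (-0.90 ± 0.10, 0.00676) and SMAD5 (-0.65 ± 0.10, 0.0110) led those that fell, and HEY1 (1.42 ± 0.22, 0.0116), ACVRL1 (2.56 ± 0.39, 0.0120), the ligand BMP6 (1.81 ± 0.32, 0.0172) and SMURF1 (0.56 ± 0.12, 0.0250) rose. The group-means model called none of the 42, and 0% of all genes, for either. DESeq2 called 6 of the 42 on the hydrogel, beside 8.01% of all genes. Under siRNA it called 8, beside 18.5% of all genes.

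Between the reagents, siRNA 3 gave 8 list genes higher and 4 lower than siRNA 1, 28.6% of the 42 beside 16.7% of all genes. The count was 6 without control A or B and 27 without either empty-vector siRNA library. FSTL1 (1.42 ± 0.11, adjusted p = 0.00724), SMURF2 (1.11 ± 0.10, 0.00787) and the receptor ACVR2B (1.36 ± 0.14, 0.00980) were higher, and ATOH8 (-4.83 ± 0.53, 0.0106), ACVRL1 (-2.89 ± 0.43, 0.0177) and CRIM1 (-1.53 ± 0.15, 0.00861) were lower with siRNA 3.

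**Figure D5:**
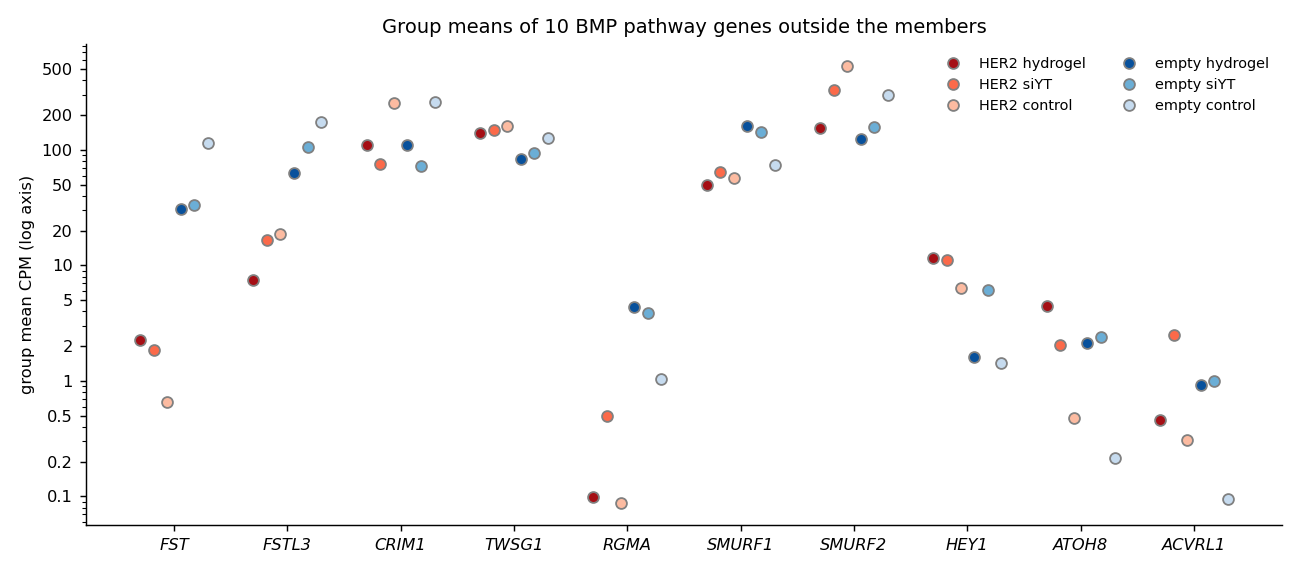
Group mean CPM (log axis) of 10 pathway genes outside the members, chosen after their values were seen from those that passed a test, with HER2 groups in reds and empty-vector groups in blues. FST, FSTL3 and RGMA lie lower in HER2 groups, and CRIM1 is lower in the hydrogel and siRNA groups of both lines.

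Likeness of profiles was described by the root mean square distance of log2 CPM, centred on each gene's mean, over the 9 libraries, among 10381 genes. Nearest to ID1 were DLG5 (0.26) and GCHFR (0.27), against a median distance of 0.75 over all genes. Nearest to ID3 were C10orf54 (0.54) and COBL (0.61; median 2.21), and to ID2 CRAT (0.49) and ALDH3A1 (0.50; median 1.84). SMAD7 was nearest to SLC23A2 (0.12) and GNA12 (0.15; median 0.69), BAMBI to RIOK3 (0.19) and RAB9A (0.20; median 0.79), and BMP2 to SLC16A4 (0.52) and TUBA1A (0.74; median 2.16). SMAD6 and BMP4 were too low for this measure, which took a mean log2 CPM of at least 2.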

How the data were processed

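Total RNA of 9 MCF10A samples was sequenced as ribosome-depleted libraries, per the labels' protocols. The deposited table holds read counts per gene, made by the authors; the submitters' processing notes name STAR 2.5.3a, featureCounts, edgeR and hg19. Their settings, strand included, are not given in the sources used here. The values are raw counts of 25370 entries, of which 1 without a symbol held 0 counts and was left out.

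Here edgeR 4.0.16 (R 4.3.3) was run with TMM scaling and a filter at a minimum count of 10, leaving 16117 genes; SE is the size of the log2 fold change over the square root of F. The group-means model left 3 residual degrees of freedom and the reagent model 2. The numbers 1 and 3 were read from the labels as the same siRNAs in both lines, a reading that the reagent model rests on and 2 pairs cannot settle: the siRNA 3 minus siRNA 1 differences of the 2 lines correlated across the 16117 genes (r = 0.42 with 2 pairs; genes are not independent replicates), and reagent-model values stand beside those of the group-means model. DESeq2 1.42.0, RLE scaling, no filter and leaving out each replicate were the alternatives. The 13 comparisons used all 9 libraries in 1 fit.

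The 10 members are all accounted for. Of the pathway list, genes past the threshold in either model were named, at most 4 per comparison and direction, by smallest p. Members and lists were chosen with earlier results of these data known. No sequence is printed beyond RefSeq promoter windows, whose build differs from hg19.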

Additional observations from a re-analysis of the deposited data

Results flagged for a closer look

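The ID3 response to the hydrogel differed between the lines in DESeq2's test of the interaction, by 3.10 on the log2 scale (SE 0.65, adjusted p = 0.000536). That test called 500 of all genes, or 3.10%. The ratio of hydrogel to plastic CPM was 13.0 in HER2 cells and 1.45 in empty-vector cells. Neither edgeR model called it (adjusted p = 0.379 and 0.0709). The hydrogel arm was 1 library in each line, and the HER2 control held 13 ID3 counts.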

How the results depend on the processing

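Of the 9 tested members, the group-means model called 1 (plastic), 1 (hydrogel), 1 (siRNA) and 3 (mean) for HER2 against empty-vector cells, and 0 in each hydrogel, siRNA and interaction comparison. With the replicate block these counts were 2, 4, 3 and 6 for HER2 against empty-vector cells, 2 in empty-vector cells, 1 in HER2 cells and 4 over both lines for the hydrogel, and 4, 1 and 4 for siRNA; the interactions stayed at 0. The fitted spread between libraries (common coefficient of variation) was 0.408 in the group-means model and 0.209 with the block. The cause of the higher counts was not tested. With DESeq2 the member counts were 2, 2, 4 and 5, then 3, 1 and 4 for the hydrogel and 3, 2 and 5 for siRNA. For the hydrogel interaction DESeq2 called 1 member. Its shares of all genes were 14.4%, 17.0%, 21.1% and 36.7% for HER2 against empty-vector cells and 3.10% for that interaction. Without the filter on low counts the siRNA count over both lines was 1, and RLE scaling moved no count by more than 1.5 times. Leaving out 1 replicate at a time, in both models, gave 0 to 6 members for HER2 on plastic, 0 to 8 on the hydrogel, 1 to 6 under siRNA and 2 to 7 over the mean. It gave 0 to 9, 0 to 5 and 0 to 6 for the hydrogel in empty-vector cells, HER2 cells and both, 0 to 7 for each siRNA comparison, 0 to 4 for each interaction, and 1 to 6 for siRNA 3 against siRNA 1. The upper ends come from reagent-model fits without 1 siRNA library, whose residual spread is that between controls A and B alone and which called up to 11748 of all genes; in the hydrogel comparisons up to 10299, 7910 and 9229. Over all genes, HER2 against empty-vector cells on plastic gave 166 calls in the group-means model, 3597 with the block, 2322 with DESeq2 and 400 without the filter. On the hydrogel the same 4 counts were 244, 4137, 2732 and 788, and under siRNA 942, 5293, 3401 and 1377. Over both lines the hydrogel gave 0, 2241, 1291 and 15 calls and siRNA 0, 4754, 2979 and 661. No called member's fitted direction reversed under any alternative run. The HER2 control on plastic, the shallowest library, held 13 to 15 counts of ID2, ID3, BMP2 and BMP4, so its levels of these genes carry wide counting intervals. DESeq2 was also run for siRNA 3 against siRNA 1, with 3 members called against 2. It called 24.5% of all genes there, against 16.7% in the reagent model. Every listed alternative was run.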
